A study of Mus musculus with 6 samples.

Results

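Genes for the uptake and breakdown of glucose were followed in immature mouse cardiomyocytes (imCMs) grown with cardiac fibroblasts of different age. The 10 genes were taken by name and cover transport (Slc2a1, Slc2a4), the first phosphorylation (Hk1, Hk2), the committed step (Pfkm, Pfkp), the last step (Pkm), lactate formation (Ldha, Ldhb) and the block on pyruvate oxidation (Pdk4). All 10 were found among 27179 genes of the bulk count table and in both single-cell tables. All cells came from C57BL/6 mice. Bulk RNA-Seq was performed on newborn imCMs kept with neonatal fibroblasts (NFs; group imCM-NF, 2 libraries) or with adult fibroblasts (AFs; group imCM-AF, 2 libraries), so that every bulk library held co-cultured cells and none was grown alone. Per the study's methods, both cell kinds were dye-labelled, the imCMs were sorted after co-culture, fibroblasts of both ages had been passaged, and more adult than neonatal fibroblasts were plated per imCM. Single cells gave 1 library labelled cardiomyocytes and 1 labelled fibroblasts, and the labels do not say that every well held co-cultured cells. They were processed in nanowells in which transcripts carry a unique molecular identifier (UMI). Counts are given as UMI CPM, UMIs per 1000000 UMIs of the same wells. The labels do not say which bulk libraries came from separate cultures, so p-values measure the spread between these samples, which may be technical.

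Glucose enters a cell through facilitative transporters, is trapped by hexokinase, is committed to glycolysis by phosphofructokinase and ends as pyruvate, which is either reduced to lactate or oxidised by mitochondria through pyruvate dehydrogenase. The fetal heart relies largely on glucose and lactate, and after birth the heart moves towards the oxidation of fatty acids. Several steps have isoforms that differ between the fetal and the adult heart, with SLC2A1 (GLUT1) and HK1 more prominent before birth and the insulin-regulated SLC2A4 (GLUT4) and HK2 after it. LDHB is the lactate dehydrogenase subunit typical of heart muscle and LDHA that of tissues with high glycolytic flux.

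The upstream sequences of 4 members are printed, picked by their values in the bulk libraries. Pdk4 was the member with the largest difference and Hk2 came next. The paired genes Ldha and Ldhb had log2 fold changes of opposite sign, as Slc2a1 and Slc2a4 also did. Of the genes printed, only Pdk4 was called by the rule given below. Each is the run of 250 bases before a RefSeq transcription start (GRCm38.p6), 5′ to 3′ on the strand of the gene. Capitals mark matches, on either strand, to ACGTG (the core bound by hypoxia-inducible and E-box factors), AGGTCA (the core of nuclear receptor sites) or GTAAACA (the core bound by FOXO factors). The windows lie at chr6:5496279-5496528 (Pdk4, minus strand), chr6:82774455-82774704 (Hk2, minus strand), chr6:142507958-142508207 (Ldhb, minus strand) and chr7:46845554-46845803 (Ldha, plus strand, inside the annotated span of the gene, which has an earlier start).
Pdk4: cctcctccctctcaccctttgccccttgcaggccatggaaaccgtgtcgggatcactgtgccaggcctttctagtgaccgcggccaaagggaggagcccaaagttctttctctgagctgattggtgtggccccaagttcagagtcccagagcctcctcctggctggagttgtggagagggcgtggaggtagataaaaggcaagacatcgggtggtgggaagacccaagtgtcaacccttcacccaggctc
Hk2: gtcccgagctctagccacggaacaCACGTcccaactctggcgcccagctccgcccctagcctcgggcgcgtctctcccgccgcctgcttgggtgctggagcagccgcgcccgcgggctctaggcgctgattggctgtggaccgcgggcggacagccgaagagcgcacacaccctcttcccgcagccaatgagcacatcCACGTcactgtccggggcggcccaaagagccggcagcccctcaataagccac
Ldhb: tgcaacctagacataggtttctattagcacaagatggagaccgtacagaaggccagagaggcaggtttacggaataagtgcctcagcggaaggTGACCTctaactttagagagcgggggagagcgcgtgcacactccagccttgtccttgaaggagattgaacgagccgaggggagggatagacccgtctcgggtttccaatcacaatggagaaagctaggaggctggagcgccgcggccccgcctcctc
Ldha: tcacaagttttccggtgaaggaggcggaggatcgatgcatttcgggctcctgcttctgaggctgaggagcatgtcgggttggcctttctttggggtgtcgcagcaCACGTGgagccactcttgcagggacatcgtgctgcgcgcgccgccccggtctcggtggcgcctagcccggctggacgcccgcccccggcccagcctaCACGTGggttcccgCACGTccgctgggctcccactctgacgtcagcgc

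Of the 10 members, 9 had at least 1 such window, 15 windows in all. ACGTG was found in 6 of these 15 windows, against 16.6% of all 32851 windows in the table. The 6 windows belong to 5 members, which were Slc2a1, Hk2, Pfkm, Pkm and Ldha. The printed Ldha window held 5 matches, since each of its 2 CACGTG runs counts on both strands. Another Ldha window, not printed, held none of the motifs searched for. AGGTCA was found in 3 of 15 windows, 1 each of Pfkm, Pkm and Ldhb, against 14.0% of all windows. GTAAACA was in none of the 15 windows and in 3.17% of all windows. GGGCGG, a GC box that was searched for but not capitalised, was in 5 of 15 windows and in 32.7% of all windows. The Pdk4 window held none of these 4 motifs. These matches describe letters in the windows and not sites that were measured.

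In the bulk libraries, Pdk4 rose beside adult fibroblasts, and none of the other 9 members was called. Levels are in CPM, library-scaled counts per 1000000 counts. Calls were made by edgeR's quasi-likelihood test over 14041 genes and required both an adjusted p below 0.05 and a change past 0.58 on the log2 scale. By this rule 1 of 10 members, Pdk4, was called, and it was higher in imCM-AF. Among all tested genes, 6.15% were called higher and 4.99% lower. By adjusted p alone, 4 of 10 members (Hk2, Pfkp, Ldhb and Pdk4) were higher in imCM-AF, against 12.5% of all tested genes. Without imCM-NF replicate 2, edgeR's adjusted p was 0.0761 for Hk2, 0.279 for Pfkp and 0.132 for Ldhb, so that Pdk4 alone was left. Without imCM-AF replicate 2, it was 0.177 for Pfkp and 0.0791 for Ldhb. The median log2 fold change was 0.22 over the members and 0.0011 over all tested genes. Total counts were 9278909 and 12088577 in imCM-NF and 10766124 and 11790263 in imCM-AF.

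**Figure D1:**
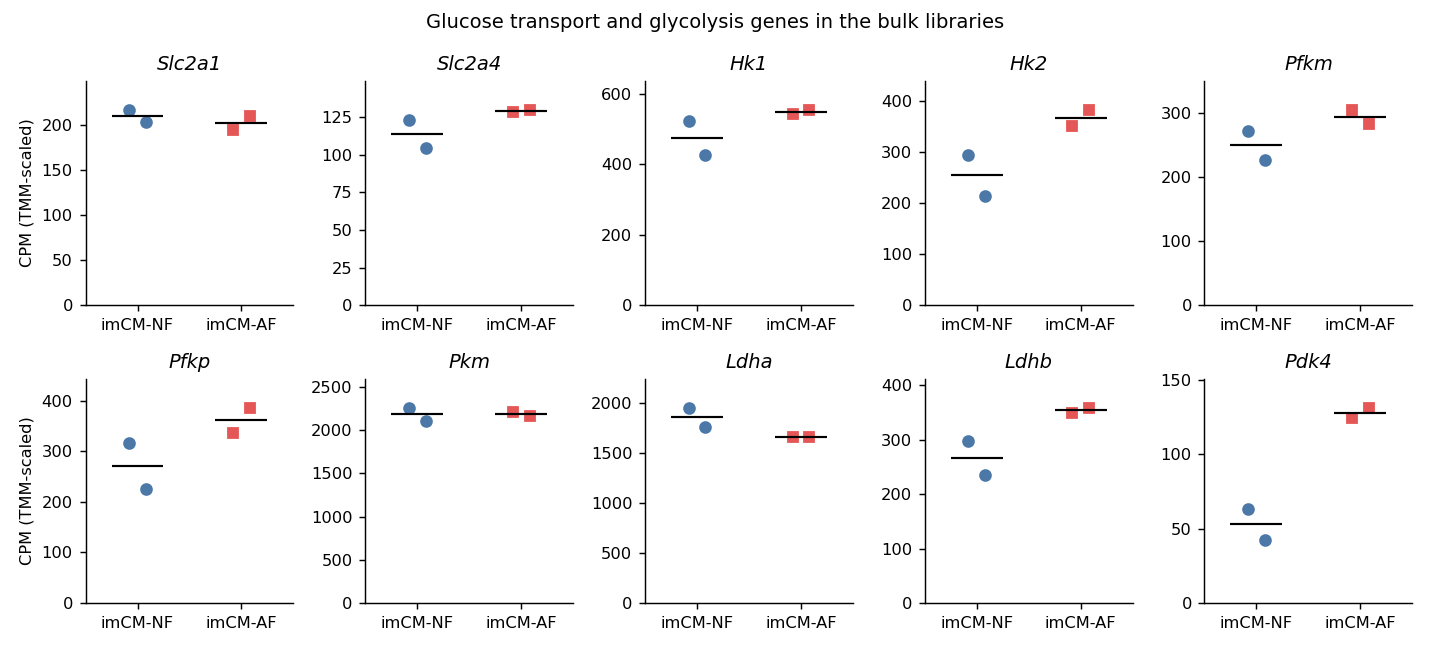
Level of each of the 10 member genes in the 4 bulk libraries, in TMM-scaled CPM on an axis that starts at 0. Each point is 1 library (circles imCM-NF, squares imCM-AF) and each bar is the mean of 2 libraries. The Pdk4 points of imCM-AF lie at 124 and 131 CPM, above 63.5 and 42.7 CPM in imCM-NF, while the Pkm points overlap.

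Both imCM-AF libraries lay above both imCM-NF libraries for 7 of 10 members, against 32.1% of all tested genes. The reverse held for 1 member, Ldha, against 33.8% of all tested genes. The imCM-NF replicate 2 library was the lowest of the 4 for 8 of 10 members. That library also had the lowest summed level of 12 cardiomyocyte markers, 33686 CPM, against 45988 CPM in imCM-NF replicate 1 and 43361 and 47728 CPM in the imCM-AF libraries. The summed level of 12 fibroblast markers was 21480 and 24040 CPM beside NFs and 15726 and 12673 CPM beside AFs, with 11 of 12 markers lower in both imCM-AF libraries. The sum over 8 endothelial markers was 943 and 978 CPM beside NFs and 639 and 605 CPM beside AFs, and the sum over 6 erythroid markers was at most 0.42 CPM in any library. The part of these cell type markers in the members' levels was not tested, and fewer cells of a type cannot be told apart from less RNA per cell.

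Since the marker sums differed between libraries, each member was also set against the cardiomyocyte markers of its own library, a scaling chosen after the data had been seen. Pdk4 then had 1.38 and 1.27 counts per 1000 cardiomyocyte marker counts in imCM-NF and 2.87 and 2.75 in imCM-AF, a difference of 1.09 on the log2 scale. Hk2 had 6.40 and 6.36 in imCM-NF and 8.11 and 8.0 in imCM-AF, so its groups did not overlap on this scale either. Pfkp (6.87 and 6.68 in imCM-NF, 7.77 and 8.08 in imCM-AF) and Ldhb (6.49 and 6.97, 8.06 and 7.51) also lay higher in both imCM-AF libraries. The share of all genes whose groups do not overlap on this scale was not computed. Ldha had 42.4 and 52.3 in imCM-NF and 38.3 and 34.8 in imCM-AF. Slc2a1, whose groups overlapped in CPM, had 4.70 and 6.05 in imCM-NF and 4.49 and 4.39 in imCM-AF, lower in both. For Slc2a4, Hk1, Pfkm and Pkm the groups overlapped on this scale.

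Among the transporters, Slc2a1 (Entrez 20525, GRCm38 chromosome 4, 119108745 to 119137330), which encodes the widely expressed basal glucose transporter GLUT1, had 216 and 204 CPM beside NFs and 195 and 209.6 CPM beside AFs. Its groups overlapped, with a log2 difference of -0.05 ± 0.10 (SE, with n = 2 in each group; adjusted p 0.724 in edgeR). Slc2a4 (Entrez 20528, chromosome 11, 69942286 to 69948216), which encodes the insulin-responsive GLUT4 of muscle and fat, had 123 and 104 CPM beside NFs and 128 and 129 CPM beside AFs. Both imCM-AF values lay above both imCM-NF values by a small margin, and the log2 fold change of 0.19 ± 0.10 did not pass the test (adjusted p 0.181 in edgeR).

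Hexokinases phosphorylate glucose and keep it in the cell. Hk1 (Entrez 15275, chromosome 10, 62268855 to 62379920) had 523 and 427 CPM beside NFs and 542 and 554 CPM beside AFs, a log2 difference of 0.21 ± 0.12 (adjusted p 0.227 in edgeR). Hk2 (Entrez 15277, chromosome 6, 82725025 to 82774454), the muscle isoform, had 294 and 214 CPM beside NFs and 351 and 382 CPM beside AFs. The Hk2 groups did not overlap, and the log2 fold change was 0.53 ± 0.13 (adjusted p 0.00662 in edgeR), under the fold threshold. Without imCM-NF replicate 2 the Hk2 log2 fold change was 0.32, and without imCM-NF replicate 1 it was 0.77 and was then called, as it was at 0.60 without imCM-AF replicate 1.

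Phosphofructokinase sets the pace of glycolysis, as the muscle subunit Pfkm (Entrez 18642, chromosome 15, 98092589 to 98132447) and the platelet subunit Pfkp (Entrez 56421, chromosome 13, 6579874 to 6649060). Pfkm had 273 and 226 CPM beside NFs and 304 and 282 CPM beside AFs, a log2 difference of 0.24 ± 0.11 (adjusted p 0.129 in edgeR). Pfkp had 316 and 225 CPM beside NFs and 337 and 386 CPM beside AFs, a log2 difference of 0.42 ± 0.14 (adjusted p 0.0307 in edgeR). Neither passed the fold threshold, although Pfkp was called at 0.68 without imCM-NF replicate 1 and was at 0.20 without imCM-NF replicate 2.

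Pyruvate kinase and lactate dehydrogenase close the pathway. Pkm (Entrez 18746, chromosome 9, 59656576 to 59679372) had 2256 and 2108 CPM beside NFs and 2206 and 2164 CPM beside AFs, and its log2 difference was 0.0022 ± 0.16 (adjusted p 0.993 in edgeR). The counts do not separate the spliced forms of Pkm, the adult and the fetal enzyme, since both belong to 1 gene. Ldha (Entrez 16828, chromosome 7, 46842274 to 46855627) had 1949 and 1760.3 CPM beside NFs and 1659.7 and 1659.7 CPM beside AFs, a log2 difference of -0.16 ± 0.15 that did not pass the test (adjusted p 0.461 in edgeR). Ldhb (Entrez 16832, chromosome 6, 142490249 to 142507957) had 298 and 235 CPM beside NFs and 349 and 359 CPM beside AFs, a log2 difference of 0.41 ± 0.12 (adjusted p 0.0170 in edgeR), under the fold threshold. Ldhb was called only without imCM-NF replicate 1, at 0.59, among the 10 other fits, and was 0.25 without imCM-NF replicate 2. Ldha has annotated pseudogenes that may share reads with it.

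Pdk4 (Entrez 27273, chromosome 6, 5483351 to 5496278) encodes a kinase that inactivates pyruvate dehydrogenase and is known to be induced when the heart burns fatty acids. It had 63.5 and 42.7 CPM beside NFs and 124 and 131 CPM beside AFs. Pdk4 was thus 2.43-fold higher in imCM-AF, with non-overlapping groups and a log2 difference of 1.28 ± 0.13 (SE, with n = 2 in each group; adjusted p 3.02e-06 in edgeR). It was called in 10 of 10 other fits, in which its log2 fold change ran from 1.02 without imCM-NF replicate 2 to 1.58 without imCM-NF replicate 1. It lay at the 98.2th percentile of the log2 fold changes of all tested genes.

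**Figure D2:**
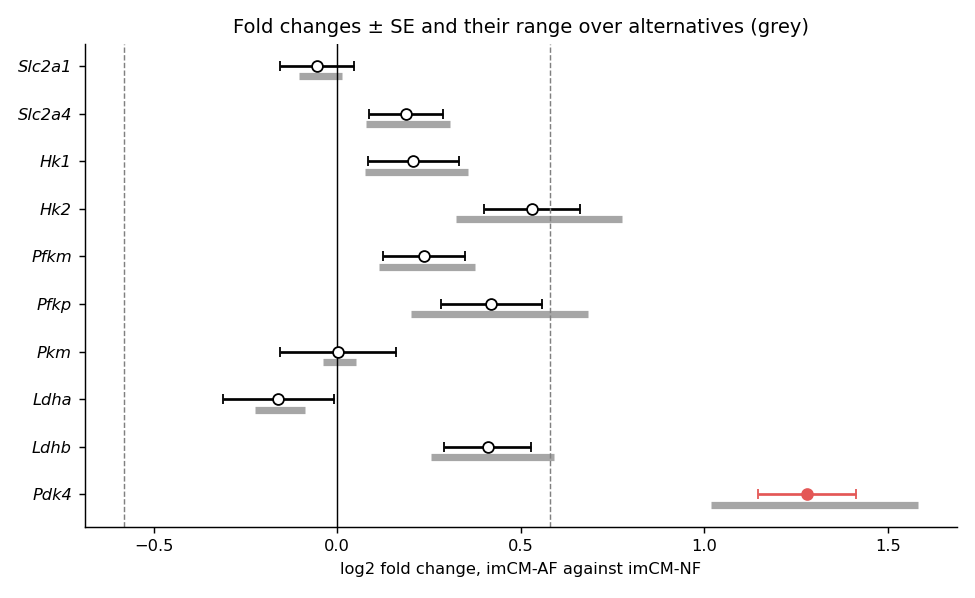
Log2 fold change of each member gene in imCM-AF against imCM-NF, with its standard error (points with bars), and the range of the estimate over 10 other fits (grey bars under the points). Dashed lines mark the fold threshold of 0.58 in either direction. Pdk4, filled, is past the threshold over its whole range, from 1.02 to 1.58, whereas the ranges of Hk2, Pfkp and Ldhb cross it.

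Between genes, levels were compared per kilobase of the union of all annotated exons, 13401 bases for Pfkp and 8532 for Hk1. The order depends on that length, which can exceed that of the transcripts counted. In UMI CPM of the single-cell cardiomyocyte wells, not divided by length, Pfkp (138 to 162.5) lay above Pfkm (51.9 to 93.8). There Hk2 (314 to 346) also lay above Hk1 (56.0 to 70.6). Ldha (mean of 4 libraries 531 CPM per kilobase) and Pkm (437 CPM per kilobase) stood highest, followed by Ldhb (198 CPM per kilobase). Pfkm, Hk1, Slc2a1 and Hk2 followed at 81.2, 59.95, 58.8 and 52.0 CPM per kilobase. The last 3 of these overlapped in their spread over libraries, from 50.1 to 64.9 for Hk1, 55.5 to 61.7 for Slc2a1 and 35.9 to 63.9 for Hk2. Slc2a4 had 34.9 and Pfkp 23.6 CPM per kilobase. The place of Pdk4 depended on the group. It had 18.1 and 12.2 CPM per kilobase in imCM-NF, where Pfkp had 23.6 and 16.8, and 35.5 and 37.4 in imCM-AF, where Slc2a4 had 36.9 and 37.2. Exons of Pkm, Pfkm, Hk1, Slc2a1 and Pfkp overlap exons of another annotated gene, among them Hk1os for Hk1 and Senp1 for Pfkm, so their counts are uncertain where strand was not used.

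Ratios of paired genes within a library do not depend on the scaling between libraries. In the bulk libraries the ratio of Ldhb to Ldha counts was 0.153 and 0.133 in imCM-NF and 0.211 and 0.216 in imCM-AF, a shift of 0.58 on the log2 scale. Ratios of Hk2 to Hk1 were 0.564 and 0.501 in imCM-NF and 0.648 and 0.689 in imCM-AF, a shift of 0.33. For Slc2a4 to Slc2a1 they were 0.568 and 0.512 in imCM-NF and 0.660 and 0.618 in imCM-AF, a shift of 0.24. In these 3 pairs the adult or muscle form thus had the higher share in both imCM-AF libraries. Pfkm to Pfkp went the other way on average, by -0.20, with overlapping groups. An exact permutation test of 2 against 2 libraries cannot go below a two-sided p of 0.33, which the 3 non-overlapping pairs reached, so none of these shifts could pass a threshold of 0.05. Such ratios still depend on the mix of cells, and summed fibroblast markers were lower in imCM-AF. Pooled UMI ratios of Ldhb to Ldha were 0.037 to 0.099 in fibroblast wells, 0.589 in NFNCM wells and 0.453 in AFNCM wells. Those of Slc2a4 to Slc2a1 were 0.131 or less, 1.44 and 0.463, in the same order. Those of Hk2 to Hk1 were 2.62 to 8.18, 6.18 and 5.925. The part of the cell mix in the bulk shifts was not tested.

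Further pairs of glucose-handling genes were taken from the lists. Pygm to Pygb, the muscle and the brain glycogen phosphorylase, had ratios of 0.662 and 0.660 in imCM-NF and 0.788 and 0.850 in imCM-AF. Pgam2 to Pgam1, the muscle and the widespread phosphoglycerate mutase, had ratios of 6.42 and 5.15 in imCM-NF and 6.98 and 8.32 in imCM-AF. Both pairs had non-overlapping groups and the smallest possible exact p of 0.33. The ratio of Eno3 to Eno1, the muscle and the widespread enolase, overlapped between the groups, at 1.38 and 1.02 in imCM-NF and 1.30 and 1.42 in imCM-AF. Eno1 and Pgam1 have many near-identical copies and only uniquely placed reads were counted, so both genes may be counted too low in these ratios.

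**Figure D3:**
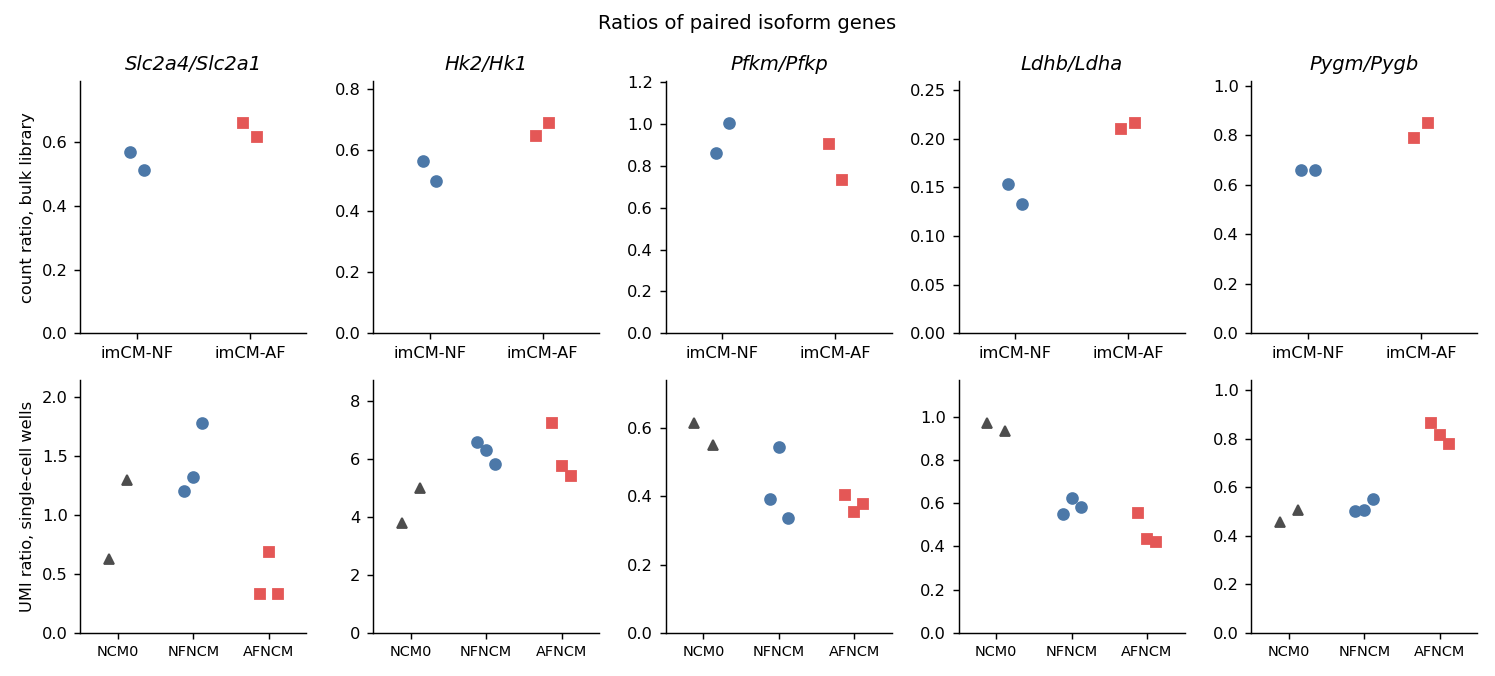
Ratios of paired isoform genes, as counts in each bulk library (upper row) and as UMIs summed over the wells of each numbered well name of the single-cell cardiomyocytes library (lower row), on axes that start at 0. The Slc2a4 to Slc2a1 ratio is higher in imCM-AF than in imCM-NF in bulk (0.660 and 0.618 against 0.568 and 0.512) and lower in AFNCM than in NFNCM wells (0.33 to 0.69 against 1.21 to 1.78).

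Outside the members, the other glycolytic enzymes showed no called gene among 13 tested in edgeR, and DESeq2 and limma-voom called 0 as well, while 1 gene higher and 1 lower had an unadjusted p under 0.05 in edgeR. Their median log2 fold change was 0.016. More genes were called among the regulators of glucose uptake. Txnip, which restrains glucose uptake by internalising transporters and is itself induced by glucose, rose from 118 and 111 CPM beside NFs to 343 and 349.7 CPM beside AFs, a log2 difference of 1.60 ± 0.10 (adjusted p 1.79e-08 in edgeR). Its relative Arrdc4 rose by 0.68 ± 0.15 (adjusted p 0.00269 in edgeR) and Tbc1d4, which holds GLUT4 inside the cell until insulin acts, by 0.79 ± 0.11 (adjusted p 7.27e-05 in edgeR). The neuronal-type transporter Slc2a3 was lower by the test, with 9.36 and 8.92 CPM beside NFs and 5.57 and 6.39 CPM beside AFs (log2 fold change -0.61 ± 0.19, adjusted p 0.0261 in edgeR). In all, 3 of 8 genes of that list were called higher and 1 lower, against the 6.15% and 4.99% of all tested genes. The call of Slc2a3 was not made by DESeq2 (adjusted p 0.156) and was kept in 3 of 10 other fits.

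Calls in the lists below stand against 6.15% of all tested genes called higher and 4.99% called lower. A single call in a list of 10 or 11 genes is near that share. Among genes that handle pyruvate, 1 of 11 tested genes of the pyruvate dehydrogenase complex and its regulators was called. This was the phosphatase Pdp1, which opposes the kinases (log2 fold change 0.66 ± 0.15, adjusted p 0.00311 in edgeR). The list's median was 0.34, and 10 of 11 values were above 0, as were 50.1% of all tested genes and 11 of 12 cardiomyocyte markers (median 0.26). In AFNCM against NFNCM wells of the single-cell library the same list went the other way, with 2 of 11 genes higher and a median of -0.34. Of 7 genes for lactate and pyruvate transport, Slc16a7 and Ldhd were called higher, both at low levels of at most 2.92 and 6.21 CPM, and DESeq2 called neither. Of 11 genes of glycogen metabolism, 2 rose, the branching enzyme Gbe1 (0.75 ± 0.12, adjusted p 3.01e-04 in edgeR) and Pygm (0.68 ± 0.13, adjusted p 0.00128 in edgeR). All 11 values of that list were above 0, with a median of 0.37, whereas in AFNCM against NFNCM wells 4 of 11 were higher, with a median of -0.071. Of 7 genes of the pentose phosphate pathway, Tkt, the transketolase, fell from 214 and 281 CPM to 173 and 141 CPM (-0.66 ± 0.13, adjusted p 0.00134 in edgeR). Of 7 tested regulators built around fructose 2,6-bisphosphate, Tigar, a phosphatase that slows glycolysis, was called higher at 0.67 ± 0.12 (adjusted p 5.24e-04 in edgeR). Of 10 hypoxia-inducible genes outside glycolysis, 1 was called, the angiogenic factor Vegfa (0.80 ± 0.13, adjusted p 2.04e-04 in edgeR).

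Of the 13 genes called in these lists and the members together, 8 lost the call without imCM-NF replicate 2. These were Slc2a3, Arrdc4, Slc16a7, Ldhd, Pdp1, Gbe1, Pygm and Tkt. The call of Slc2a3 was lost without any one of the 4 libraries. Arrdc4, Pdp1 and Tkt also lost it without imCM-AF replicate 2, and Ldhd without imCM-AF replicate 1. Pdk4, Txnip, Tbc1d4, Tigar and Vegfa remained called in each of the 10 other fits.

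**Figure D4:**
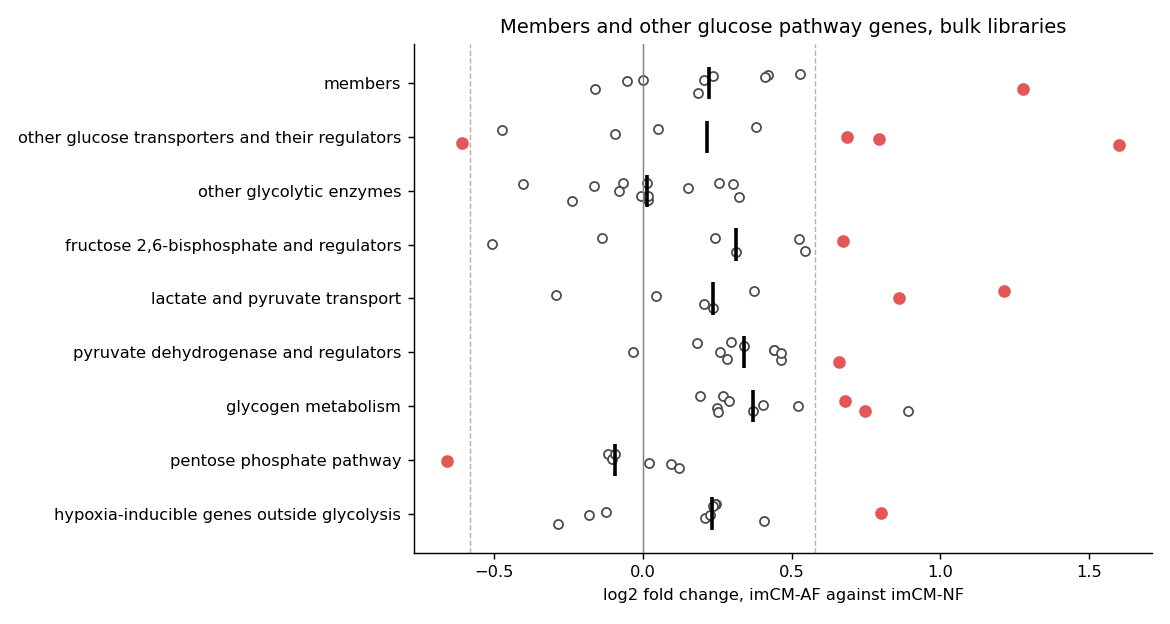
Log2 fold change in imCM-AF against imCM-NF of each tested gene of the members and of the other glucose pathway lists. Each point is 1 gene, filled where it was called, black bars are list medians and dashed lines mark the fold threshold. The glycolytic enzymes outside the members centre on 0.016 with no filled point, and the points of glycogen metabolism all lie above 0.

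The single-cell libraries give the level of the members in cardiomyocyte and fibroblast wells apart. Each well carries a name given by the authors, and the numbered names of a kind are pooled here as NFNCM, AFNCM and NCM0 (cardiomyocytes library) and NF, AF, NF0 and AF0 (fibroblasts library). The labels do not spell these names out, nor whether numbered names were separate cultures. After filters on wells 2247 of 2462 wells were kept, with median totals by kind of 16044 to 38627 UMIs. Markers of cardiomyocytes summed to 40850.0 to 49370.0 UMI CPM in the cardiomyocytes library and to 278 to 5585 in the fibroblasts library. The labelled cell type had the largest marker sum in 78.1% to 95.3% of kept wells of a kind. The 2 libraries shared 269 well barcodes. With 1 library of each kind no test was made, and intervals are exact 95% Poisson intervals that cover counting error only.

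The members fell into those of cardiomyocyte wells and those of both cell kinds. Slc2a4 had 55.5, 37.6 and 19.9 UMI CPM in NCM0, NFNCM and AFNCM wells and 4.27 or less in every kind of fibroblast well, where NF, AF0 and AF wells held 3 to 7 UMIs of it each. Pfkm had 93.8, 60.6 and 51.9 UMI CPM in the same order of cardiomyocyte wells and 5.90 to 6.82 in fibroblast wells. Ldhb had 707, 599 and 461.5 UMI CPM in cardiomyocyte wells and 23.8 to 43.3 in fibroblast wells. These 3 genes, which encode muscle or heart forms, had the largest ratios of the 10 members between NFNCM and NF wells, with NFNCM wells at 38.2, 10.3 and 15.01 times the level of NF wells. NF and NF0 wells held cardiomyocyte markers at 3942 and 5585 UMI CPM and AF and AF0 wells at 735 and 278, and the part of such RNA in the fibroblast values was not tested.

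Pfkp lay between, with 138 to 162.5 UMI CPM in cardiomyocyte wells and 40.2 to 52.5 in fibroblast wells. Hk2 and Ldha were high in cardiomyocyte wells, at 314 to 346 and at 746 to 1020 UMI CPM, and were at similar levels in AF and AFNCM wells, with overlapping names, at 331 and 885. Hk1 ran from 38.0 in NF wells to 70.6 in NCM0 wells, and Slc2a1 from 22.9 in AF0 wells to 56.0 in NCM0 wells. Pkm was highest in AF wells (832 UMI CPM) and AF0 wells (788) and lowest in NFNCM wells (420.3). Every numbered NFNCM name lay above every numbered NF name for 6 of 10 members, against 20.3% of 11942 genes with at least 50 UMIs. Every numbered AFNCM name lay above every AF name for 6 members (18.0% of 12912 genes) and below it for 1, Pkm (32.4%). Pdk4 was among the 6, at a ratio of 10.2, since AF wells held 18 UMIs of it. These contrasts are between the 2 libraries, so that cell kind and library cannot be told apart.

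**Figure D5:**
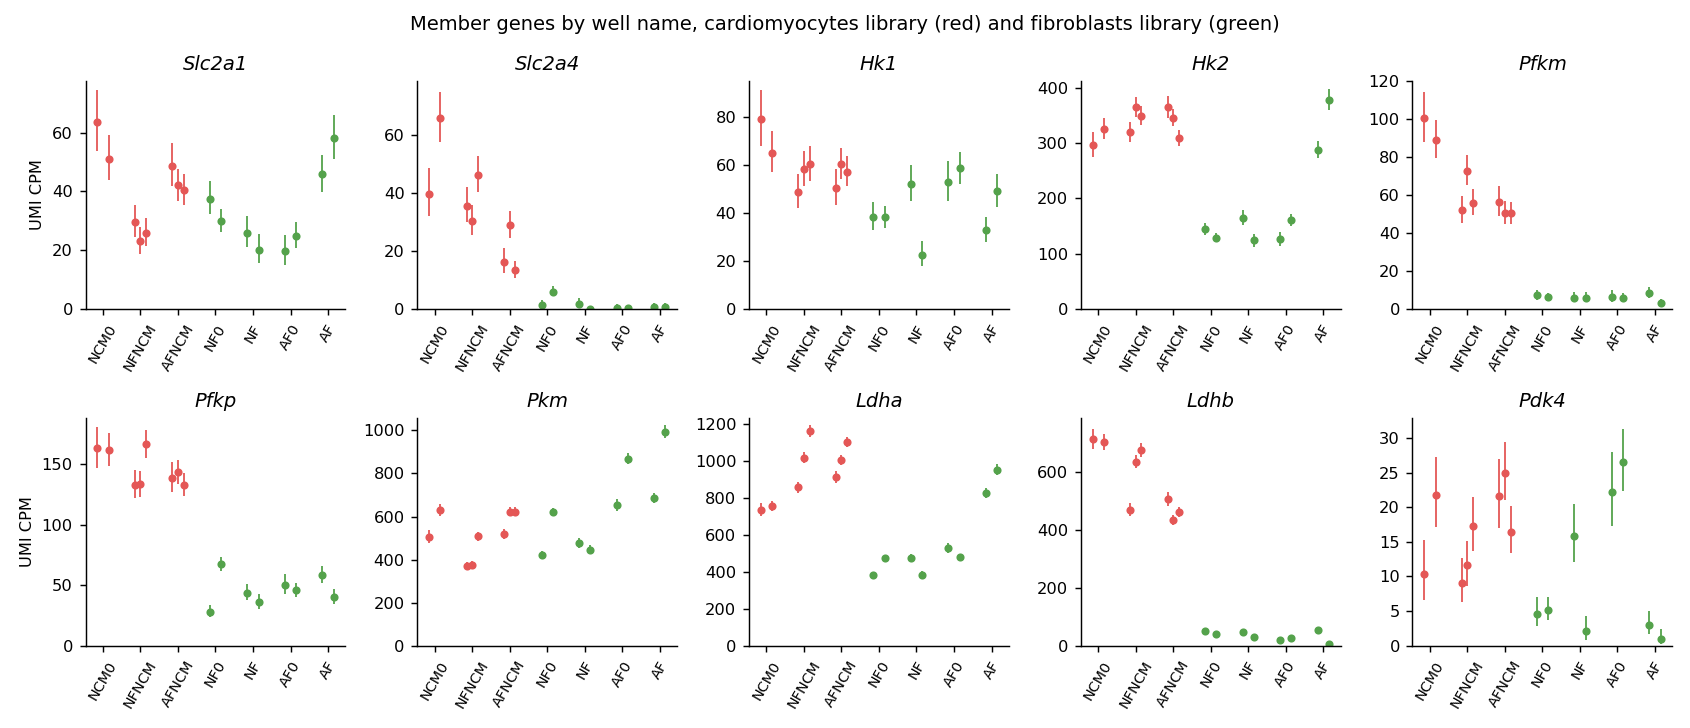
Level of each member gene in UMI CPM, for each numbered well name (points, with exact 95% Poisson intervals) grouped by kind, on axes that start at 0. Red marks wells of the cardiomyocytes library and green wells of the fibroblasts library. Slc2a4, Pfkm and Ldhb are near 0 in the green wells relative to the red ones, while Slc2a1, Hk1, Hk2, Pkm and Ldha overlap between the colours.

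Between AFNCM and NFNCM wells, both in 1 library, 2 of 10 members lay higher in every AFNCM name and 1 lower. Of 12948 genes with at least 50 UMIs, 14.1% lay above and 5.72% below in this way. Slc2a1 had 48.7, 42.0 and 40.3 UMI CPM in the AFNCM names and 29.6, 23.0 and 26.0 in the NFNCM names. Pooled, it was 42.9 (95% interval 39.7 to 46.4) against 26.0 (23.3 to 28.9), a ratio of 1.65. Pkm had 519, 622 and 622 UMI CPM in AFNCM and 368, 376 and 508 in NFNCM, a ratio of 1.42. Slc2a4 went the other way, with 16.2, 28.9 and 13.4 UMI CPM in AFNCM and 35.7, 30.3 and 46.3 in NFNCM, a ratio of 0.529.

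In bulk, by contrast, Slc2a1 and Pkm overlapped between the groups and Slc2a4 lay higher in both imCM-AF libraries, although it did not pass the test. The difference between the assays was not tested. AFNCM wells held more fibroblast marker RNA than NFNCM wells (3750 against 2256 UMI CPM) and more endothelial marker RNA (308.5 against 84.3). In wells where the cardiomyocyte markers had the largest sum, which held 402 AFNCM and 447 NFNCM wells, the log2 ratio was 0.62 for Slc2a1, 0.41 for Pkm and -0.90 for Slc2a4, beside 0.72, 0.51 and -0.92 over all kept wells. The size of the Slc2a4 value depended on the weighting of wells, with -0.64 over all wells without filters and -0.43 as a mean over wells.

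For the other 7 members the numbered names overlapped. Pdk4, the member called in bulk, had 21.6, 25.01 and 16.5 UMI CPM in AFNCM and 9.11, 11.6 and 17.3 in NFNCM. Pooled, Pdk4 was 20.9 (95% interval 18.6 to 23.3) against 12.9 (10.99 to 14.96), a ratio of 1.62, which rests on 315 and 168 UMIs. Ldhb had a ratio of 0.771, with 506, 434 and 461 UMI CPM in AFNCM and 469, 635 and 675 in NFNCM. Ldha (ratio 1.002), Hk1 (1.01), Hk2 (0.972), Pfkp (0.954) and Pfkm (0.856) lay near 1. The median log2 ratio of all genes with at least 50 UMIs was 0.13.

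Against wells named NCM0, several members had lower levels in both NFNCM and AFNCM wells. Every NFNCM name lay below every NCM0 name for 4 members (15.5% of 11668 genes) and above it for 1 (12.2%). The lower ones were Slc2a1 (ratio 0.465), Pfkm (0.647), Hk1 (0.793) and Ldhb (0.847), and the higher one was Ldha (1.36). Every AFNCM name lay below every NCM0 name for 6 members (14.2% of 12384 genes) and above it for 1, again Ldha (21.3%). These 6 were the same 4 with Slc2a4 (ratio 0.359) and Pfkp (0.852). The ratio of Ldhb to Ldha UMIs was 0.973 and 0.932 in the NCM0 names, 0.549 to 0.625 in the NFNCM names and 0.419 to 0.555 in the AFNCM names. It was thus lower in every NFNCM and AFNCM name than in either NCM0 name, while NFNCM and AFNCM overlapped.

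The Slc2a4 to Slc2a1 ratio was 1.21 to 1.78 in the NFNCM names and 0.33 to 0.69 in the AFNCM names, with NCM0 at 0.628 and 1.29. Ratios of Hk2 to Hk1 and of Pfkm to Pfkp overlapped between AFNCM and NFNCM, at 5.41 to 7.24 against 5.81 to 6.58 and at 0.354 to 0.405 against 0.337 to 0.545. Of the pairs outside the members, Pygm to Pygb, at 0.779 to 0.867 in AFNCM and 0.504 to 0.552 in NFNCM, went the same way as in bulk. The enolase and phosphoglycerate mutase pairs were not interpreted in single cells, since Eno1, Pgam1 and Gapdh have many near-identical copies. These genes were at 18.2, 7.49 and 7.29 UMI CPM in AFNCM wells while Gapdh was at 891 to 1041 CPM in bulk. As counted, Pgam2 to Pgam1 was lower in AFNCM (98.8 to 114.6) than in NFNCM (191.8 to 299.3), opposite to bulk. Eno3 to Eno1 overlapped, at 18.7 to 74.8 against 53.1 to 101.8.

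In AF against NF wells, Slc2a1 and Pkm again lay higher on the adult side, here together with Hk2 and Ldha. Of the 9 members with at least 50 UMIs, every AF name lay above every NF name for 4 (28.1% of 11647 genes), and none lay below (16.5%). Hk2 had 288 and 379 UMI CPM in AF and 165 and 124 in NF, a ratio of 2.28. Slc2a1 had 45.9 and 58.3 in AF and 25.9 and 19.98 in NF, a ratio of 2.24. Ldha (ratio 2.06) and Pkm (1.80) followed. Pdk4 was low in these wells, with 2.05 UMI CPM in AF (18 UMIs) and 9.28 in NF (66 UMIs), and 59 of these 66 UMIs came from 1 NF name. AF0 wells had 24.9 and NF0 wells 4.93 UMI CPM of Pdk4. The AF and NF names overlapped in Pdk4, whereas both AF0 names lay above both NF0 names.

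The genes whose pattern over the 16 numbered well names was most like that of a member were searched among 6090 genes, by Pearson correlation of log2(UMI CPM + 1). These values describe likeness over wells that share libraries and depth, and carry no test. Slc2a4 was closest to the ATP synthase genes Atp5a1 and Atp5g3 and the respiratory chain gene Uqcrh (r = 0.976, 0.972 and 0.972). Pfkm was closest to Mdh1, Tpm1 and Ndufa11 (r = 0.987, 0.986 and 0.986), Pfkp to Uqcrc2, Ndufv1 and Tsc22d4 (r = 0.967, 0.964 and 0.962), and Ldhb to Uqcr10, Fbxl22 and Pfkm (r = 0.984, 0.982 and 0.981). Hk2 and Ldha were close to each other (r = 0.933), and both were close to Sod2 (r = 0.940 and 0.918). Hk2 was also close to Fos (r = 0.918) and Ldha to Itm2b (r = 0.922). Slc2a1 (Psmb10, Lama5, Vldlr), Hk1 (Ide, Akip1, Pgm1), Pkm (Zfp36, Pgam1-ps2, Id1) and Pdk4 (Arfrp1, Ehbp1l1, Myo18a) had closest genes at r of 0.784 to 0.881.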

How the data were processed

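Members and lists were chosen with earlier results of these data known. Bulk files hold unscaled read counts per gene as deposited, made per the study's methods with subread on mm10 (uniquely placed reads) and featureCounts on its built-in RefSeq genes, strand setting not given in the sources used here. Single-cell files hold, as deposited, UMI counts of each gene in each well from STAR and featureCounts (STAR 2.5.2b and Subread 1.4.6-p1 are named in the submitters' processing notes). Deposited well reports hold counts of read pairs and a name for each well.

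Genes over 1 CPM in at least 2 libraries were kept, since the table holds no lengths for the study's RPKM filter. The contrast of imCM-AF to imCM-NF was fitted in edgeR 4.0.16 (R 4.3.3), TMM scaling, group as the only term, quasi-likelihood test, Benjamini-Hochberg adjustment over 14041 genes. DESeq2 1.42.0, limma-voom 3.58.1, other scalings, no filter, replicate terms and each library left out were alternatives. The procedure was tested on simulated data. Libraries of a group differed by more than counting noise, with chi-square per degree of freedom of 8.60 and 8.42. Identifiers without a symbol, 1904, held 3.52% of counts.

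Wells entered with 500 or more genes, an aligned share over 50% and a total of UMIs no further than 2 SD from the mean of all wells but controls. The lower bound of that total was negative (-53458), so only the upper bound, 129577 UMIs, could remove wells. The 34 mitochondrial genes found were left out. UMIs were summed by well name, since each library is 1 sample, and divided by the total. Doublets were not called. Named genes were all members, called genes and pair partners of the lists, and the 3 genes most like each member with a mean of at least 20 UMI CPM. Exon lengths came from GENCODE vM21, coordinates and promoters from RefSeq. No promoter of Slc2a4 was used here.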

Additional observations from a re-analysis of the deposited data

Results flagged for a closer look

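Wells named as positive controls stand outside every comparison. In the fibroblasts library, 5 such wells had a median of 6.00 UMIs of the members per well, above the highest of 5 negative control wells, which had 3 (median total 11035 UMIs against 217). In the cardiomyocytes library the positive control wells had a median of 1 UMI of the members, no higher than the highest negative control well, which also had 3. The labels do not say what the positive control wells held.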

How the results depend on the processing

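Over the bulk fits, the count of called genes was 1564 and that of called members 1. An adjusted p alone gave 3789 genes and 4 members, and a log2 threshold of 1 gave 565 genes. Leaving out 1 library in turn gave 879 to 1929 genes and 1 to 4 members, the lone library of a group being assumed to vary like the others. The higher member count without imCM-NF replicate 1 came from Hk2, Pfkp and Ldhb.

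The replicate block (1430 genes, 1 member) lost the call of Slc2a3 among the genes named, and edgeR's adjusted p became 0.0748 for Pfkp and 0.0593 for Ldhb. Deviations of same-numbered libraries correlated at -0.131, the labels do not say that a number marks a shared culture, and with the numbers crossed, an alternative chosen after seeing the data, 1668 genes and 1 member were called.

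The direction of some small log2 fold changes turned, and the cause was not tested. Pkm was -0.0094 with no filter on low counts. Over the fits that leave out a library, Pkm ran from -0.038 to 0.050, Slc2a1 from -0.10 to 0.012, Eno3 from -0.12 to 0.18, Pgam2 from -0.033 to 0.37, and the Eno3 to Eno1 ratio shift from -0.025 to 0.41. Per 1000 cardiomyocyte marker counts, chosen after seeing the data, Slc2a4 was -0.020 and Pkm -0.21. In single cells, the AFNCM to NFNCM log2 ratio of Ldha was -0.068 in wells led by the labelled markers and -0.0037 with mitochondrial genes in the total, and that of Hk1 was -0.35 as a mean over wells. The other single-cell members kept their direction in each of the 4 alternatives, and the number of members higher in AFNCM was 4 or 5. With 2 libraries per group and members at 42.7 to 2256 CPM, the spread between libraries rather than depth limits the bulk comparison, while Pdk4 and Slc2a4 rest on under 500 UMIs per kind of well.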
